A study of Mus musculus with 27 samples.

Results

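Cytoplasmic ribosomal protein genes encode the protein part of the ribosome that translates nuclear messages. They were taken here as the protein-coding genes of the deposited table whose symbol is Rpl or Rps followed by a number, with an optional closing letter or digit, together with Rplp0, Rplp1, Rplp2 and Rpsa, and without the Rps6k kinase genes. Of 84 symbols that match, 75 reached 10 or more normalised read counts in 3 or more of the 27 samples and form the set described, 30 of the small and 45 of the large subunit, out of 45070 genes in the table and 13901 that passed the same minimum. The set was thus chosen by measured values. Just inside the minimum were Rps15 (10 or more in 3 samples, mean over the 27 samples 6.15), Rps25 and Rps27 (4 samples each, means 6.41 and 7.44) and Rplp1 (5 samples, mean 6.93). Just outside were Rps26, Rpl22l1 and Rpl36, each at 10 or more in 1 sample, with means of 6.19, 5.59 and 5.41. The other 6 under the minimum were Rpl39, Rps29, Rpl39l and Rpl3l, which peaked at 7, 9, 2 and 2, and Rpl10l and Rpl32l, which were listed at 0 in every sample.

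The samples were wild type mouse bone marrow-derived macrophages (BMDMs), primary macrophages grown out of bone marrow of male C57/BL6 mice aged 6 to 8 weeks. All cultures, the untreated ones included, were first kept for 1 h with DMSO, the solvent of the kinase inhibitors that the study tested elsewhere. They were then left without stimulus or given lipopolysaccharide (LPS), a bacterial cell wall component, or interleukin-4 (IL-4), a type 2 cytokine, each at 10 ng/ml and for 0.5, 1, 2 or 4 h, which gave 9 groups of 3 replicates. Chromatin-associated RNA was sequenced, the fraction that holds transcripts still being made, after random-primed Smart-seq2 library preparation. The fraction is meant to reflect RNA at the gene more than the store of cytoplasmic message, and carry-over of finished RNA was not tested. No label says that replicates came from separate animals or cultures, so p-values measure the spread between these samples only, which may be technical. The summed values of 7 macrophage markers ranged from 9579 to 17755 per sample. Those of T cell, B cell, neutrophil and erythroid markers stayed at or under 28, with Cd3e, Ly6g, Hba-a1 and Hbb-bs at 0 in every sample, while dendritic cell markers summed to 2 to 6 in untreated, 5 to 96 in LPS and 10 to 22 in IL-4 samples and fibroblast markers to 28 to 207. Their part in the results below was not tested.

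Ribosomal protein genes are housekeeping genes with short, strong promoters, and their products are needed in equal amounts, since each ribosome holds 1 copy of nearly every protein. Their messages are long-lived and carry a run of pyrimidines at the very 5′ end, the TOP motif, through which mTOR signalling and the RNA-binding protein LARP1 control translation. Macrophage activation is known mainly for changes in inflammatory genes, and ribosomal protein genes often serve as references that are assumed to stay level.

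The starts of 6 members whose chromatin RNA changed are given to show where pyrimidine runs lie. A marked run need not be a TOP motif. Each line runs from 20 bases before to 30 bases from the annotated start (RefSeq, GRCm38.p6) on the gene's strand, and capitals mark the longest whole run of C or T that touches the stretch from 5 before to 30 after the start. Rps6 and Rps18, which were higher after both stimuli, Rps9 and Rps24, which were higher late after LPS, and Rpl24 and Rpl23, which were higher within 0.5 h of LPS, are shown. Rps6 was called higher at 0.5 h of LPS too. Rps18 and Rpl23 were picked after their values were seen.
Rps6, chr4:86857338-86857387, minus strand: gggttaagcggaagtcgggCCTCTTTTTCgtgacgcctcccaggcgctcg
Rps18, chr17:33955636-33955685, minus strand: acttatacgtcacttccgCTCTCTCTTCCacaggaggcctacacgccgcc
Rps9, chr7:3704021-3704070, plus strand: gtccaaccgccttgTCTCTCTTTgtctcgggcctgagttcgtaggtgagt
Rps24, chr14:24490658-24490707, plus strand: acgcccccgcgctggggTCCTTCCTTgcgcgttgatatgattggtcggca
Rpl24, chr16:55966255-55966304, plus strand: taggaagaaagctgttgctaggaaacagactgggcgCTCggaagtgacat
Rpl23, chr11:97782410-97782459, minus strand: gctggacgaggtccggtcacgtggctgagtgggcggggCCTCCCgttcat
The longest run was 10 bases in Rps6, 11 in Rps18, 9 in Rps9 and 9 in Rps24, but 3 in Rpl24 and 6 in Rpl23. With the start base as 1, it began at −1 in Rps6, −2 in Rps18, −6 in Rps9 and −3 in Rps24. In Rpl24 and Rpl23 it began at 17 and 19, so neither of these runs lies at the annotated 5′ end. The runs of Rps9 and Rps24 began with T.

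A promoter sequence was matched for 57 of the 75 members. A pyrimidine run of at least 8 bases touched the stretch from 5 before to 30 after an annotated start in 34 of the 57 (59.6%), against 19.7% of 17490 protein-coding genes. Such a run included the start base itself in 17 (29.8%, against 4.20%), and a run of at least 5 that begins with C exactly at the annotated start was present in 13 (22.8%, against 2.67%). The letters CCGGAAG, the core bound by ETS-family factors such as GABP, occurred on either strand of the 300 bases around the start in 23 members (40.4%, against 12.9%). The letters CTTTCC occurred in 31 (54.4%, against 28.8%). Other motifs were at shares near those of protein-coding genes: TATAA in 14 members (24.6%, against 25.2%), CACGTG, an E-box read by MYC among others, in 6 (10.5%, against 8.91%), GGGANNNNCC, a loose form of the NF-κB site, in 14 (24.6%, against 25.6%), and TTCNNNNGAA, a loose form of the STAT6 site, in 4 (7.02%, against 7.36%). The motifs share no fixed overlap except that CTTTCC can lie inside a pyrimidine run. These matches are descriptions of the letters.

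In untreated BMDMs the members were low per gene and close to other genes per length. Mean normalised read counts ran from 4.33 for Rpl14 to 115 for Rpl3, with a median of 14.3, against a median of 60.3 over 11188 tested protein-coding genes. Per kilobase of gene span the medians were 4.46 and 2.97. The highest members per kilobase were Rps9 (24.4) and Rps3 (16.7), both small subunit proteins at the entry of the message into the ribosome, and Rpl3 (20.5), which lies near the peptidyl transferase centre. The small nucleolar RNAs inside Rps3 amounted to 85.6% of its untreated value. With such RNAs subtracted Rps3 stood at 2.41 per kilobase, against 24.4 for Rps9 and 19.1 for Rpl3 and a median of 4.18. The lowest was Rps3a1 (1.27). Among members the untreated mean went with the gene's span (Spearman's rho 0.60 over 75 genes, which share the same 3 libraries, given without a test). Reads with several hits were removed before counting, and 52 members have pseudogenes in the table that are named after them (220 in all). Their median was 4.30 per kilobase, against 5.60 for the 23 without, with small nucleolar RNAs not subtracted. That difference was not tested, nor was the part of removed reads in it. Levels of members with near-identical copies are uncertain. Only 41 members had all 3 untreated samples at 10 or more, and 16 had none.

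The summed level of the 75 members was higher after both stimuli on the deposited scale, given as values with no test. The 3 untreated samples held 1485, 1579 and 1499 normalised read counts (1521 ± 50.7, SD, n = 3). After LPS the sums were 1559, 1791 and 1667 at 0.5 h, then 2254, 2327 and 2197 at 1 h, next 2430, 2846 and 2991 at 2 h and finally, at 4 h, 2411, 2456 and 2375. After IL-4 they were 1644, 1774 and 1735 at 0.5 h, then 2022, 1925 and 1838 at 1 h, next 2461, 2061 and 1968 at 2 h and finally, at 4 h, 2328, 2072 and 2352. From 1 h on every stimulated sample lay above every untreated one, and at 0.5 h of LPS the lowest sample lay within the untreated range. Relative to the untreated mean the group means were 1.10, 1.49, 1.81 and 1.59 times as high after LPS and 1.13, 1.27, 1.42 and 1.48 times after IL-4, in order of time. In bulk RNA, more cells with such transcripts and more RNA per cell cannot be told apart.

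**Figure D1:**
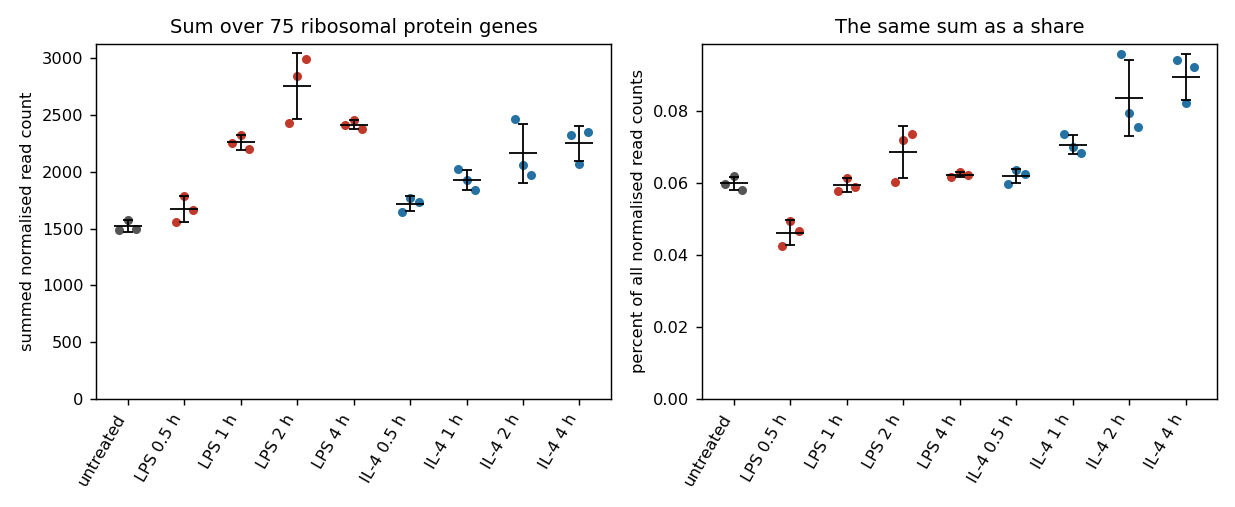
Summed normalised read counts of the 75 members in each of the 27 samples by group, with points for samples and bars for the group mean and SD, on the deposited scale and as a percent of all values of the table. On the deposited scale both courses rise from about 1521, to 2756 at 2 h of LPS and 2251 at 4 h of IL-4, while as a percent of all values the IL-4 samples rise and the LPS samples start below the untreated ones.

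The level after LPS depended on how libraries were put on 1 scale, and that after IL-4 did so less. The authors scaled libraries on genes they judged invariant, and the table totals were 2469768 to 2790981 in untreated and IL-4 samples but 3571492 to 4058199 in LPS samples. As a share of all values the members held 0.0599% in untreated samples and 0.0462, 0.0594, 0.0687 and 0.0623% over the LPS course, against 0.0619, 0.0706, 0.0836 and 0.0895% over the IL-4 course. Across the 13901 tested genes the median log2 fold change was −0.24, −0.30, −0.29 and −0.26 over the LPS course, and with equal totals −0.73, −0.86, −0.91 and −0.84. Relative to that median the members stood higher by 0.34, 0.89, 1.02 and 0.77 after LPS and by 0.16, 0.44, 0.58 and 0.56 after IL-4 on the deposited scale, all on the log2 scale. With median-of-ratios factors the LPS differences were 0.34, 0.89, 1.02 and 0.78, and with equal totals 0.34, 0.89, 1.03 and 0.76. A factor per library shifts all genes nearly alike, so this likeness is built in and tests nothing. Statements below on higher or lower members are on the deposited scale unless said otherwise.

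**Figure D2:**
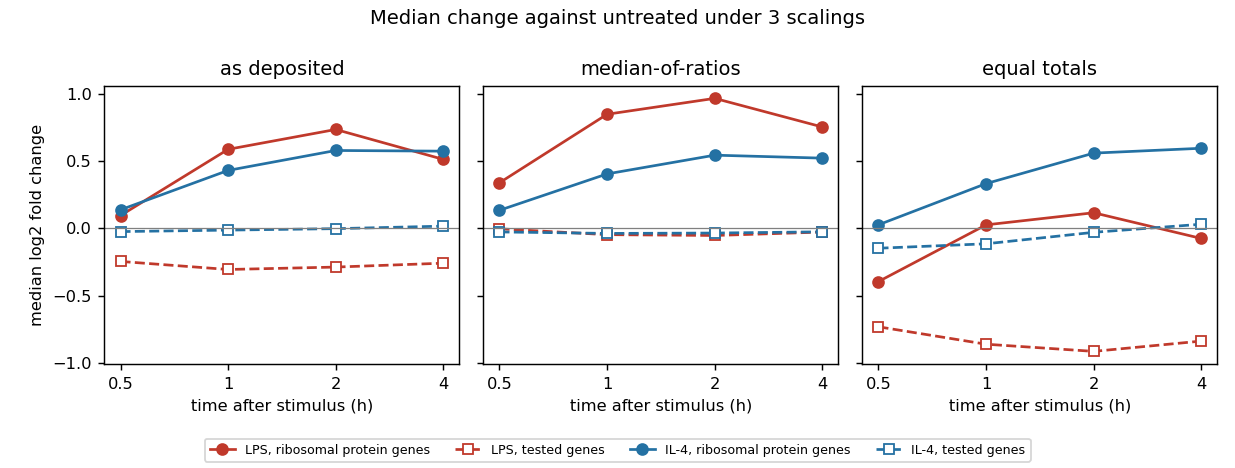
Median log2 fold change of the members (75 genes) and of all 13901 tested genes at each time point against untreated, for the deposited scale, median-of-ratios factors and equal totals. The scalings move both medians of the LPS course up and down together. The gap between members and all genes thus nearly keeps its size by construction. On the deposited scale this gap was 1.02 at 2 h of LPS and 0.58 at 2 h of IL-4.

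Over the LPS course 45 of the 75 members changed (limma F test, adjusted p under 0.05), where 87.6% of all tested genes did. Over the IL-4 course 18 changed, where 40.3% did. The number rested on replicates 2 and 3: it was 49, 25 and 14 for LPS and 11, 2 and 0 for IL-4 without replicate 1, 2 and 3 of every group, and 24 and 2 with replicates 2 and 3, which are closely alike, averaged into 1 sample. Over all 13901 tested genes 12174 changed for LPS and 5606 for IL-4 with all replicates. Without replicate 1, 2 and 3 these numbers were 12504, 10191 and 10057 for LPS and 6546, 2234 and 2169 for IL-4. With replicates 2 and 3 averaged they were 10512 and 2503. Where limma called 0 members over the IL-4 course without replicate 3, 21 members had an unadjusted p under 0.05 at 4 h. Of the 41 members with all untreated samples at 10 or more 31 changed over the LPS course, and of the 34 others 14, a split that was not tested.

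After LPS, members that were higher outnumbered those that were lower from 1 h on. At 0.5 h 10 members were higher and 8 lower (limma, adjusted p under 0.05), where 19.6% of tested genes were higher and 34.4% lower, and the members' median log2 fold change was 0.10. At 1 h 28 were higher and 2 lower (background 24.8% and 39.0%, median 0.59). At 2 h 38 were higher and 1 lower (26.9% and 39.0%, median 0.73). At 4 h 24 were higher and 2 lower (25.9% and 37.6%, median 0.51). The highest of the 4 means came at 2 h in 39 members. With median-of-ratios factors the split of higher to lower members was 16 to 5, 41 to 1, 49 to 1 and 32 to 2 in order of time, but with equal totals it was 2 to 24, 5 to 9, 10 to 4 and 6 to 10, where the all-gene shift given above applies. Over all 13901 tested genes it was 3580 to 3767, 4315 to 4470, 4463 to 4538 and 4310 to 4394 with median-of-ratios factors. With equal totals it was 1621 to 7255, 2158 to 7749, 2369 to 7976 and 2426 to 7808 over all tested genes. Without replicate 2 the members' split was 2 to 3, 10 to 1, 21 to 0 and 12 to 2. Without replicate 3 it was 2 to 3, 11 to 1, 19 to 0 and 8 to 3. Averaging replicates 2 and 3 gave 3 to 3, 13 to 1, 22 to 0 and 12 to 2. Over all tested genes the split at 2 h was 3740 to 5417 with all replicates. It was 3034 to 4293 without replicate 2, 3070 to 4179 without replicate 3 and 3168 to 4449 with averaging. In small subunit members 15 were higher and 1 lower at 2 h (median 0.72), and in large subunit members 23 and 0 (median 0.76).

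After IL-4 the members that passed were higher, with 1 exception. At 0.5 h 3 were higher and 0 lower (background 8.15% and 8.14%, median log2 fold change 0.14), namely Rpl6, Rps18 and Rps3a1. At 1 h 6 were higher and 1 lower (11.1% and 9.83%, median 0.43), the latter Rps20. At 2 h 21 were higher and 0 lower (14.3% and 13.2%, median 0.58), and at 4 h 22 and 0 (13.4% and 12.5%, median 0.57). At an unadjusted p under 0.05 limma gave 1 lower member at 0.5 h, 1 at 2 h and 0 at 4 h, and 8, 20, 38 and 39 higher ones over the 4 time points. With equal totals the split of higher to lower was 2 to 1, 6 to 2, 18 to 0 and 23 to 0. Over all tested genes it was 936 to 2040, 1262 to 1936, 1863 to 1972 and 1941 to 1692 with equal totals. The size of the members' counts depended on the replicates used. Without replicate 1 of every group the numbers higher were 5, 6, 12 and 17 in order of time, without replicate 2 they were 0, 0, 4 and 2, without replicate 3 they were 0, 1, 5 and 1, and with replicates 2 and 3 averaged 0, 1, 4 and 2 were higher in order of time. Over all tested genes 1856 were higher at 4 h with all replicates. The number was 1989, 845 and 842 without replicate 1, 2 and 3, and 944 with replicates 2 and 3 averaged. The LPS and IL-4 counts share the same 3 untreated samples and are given side by side only.

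**Figure D3:**
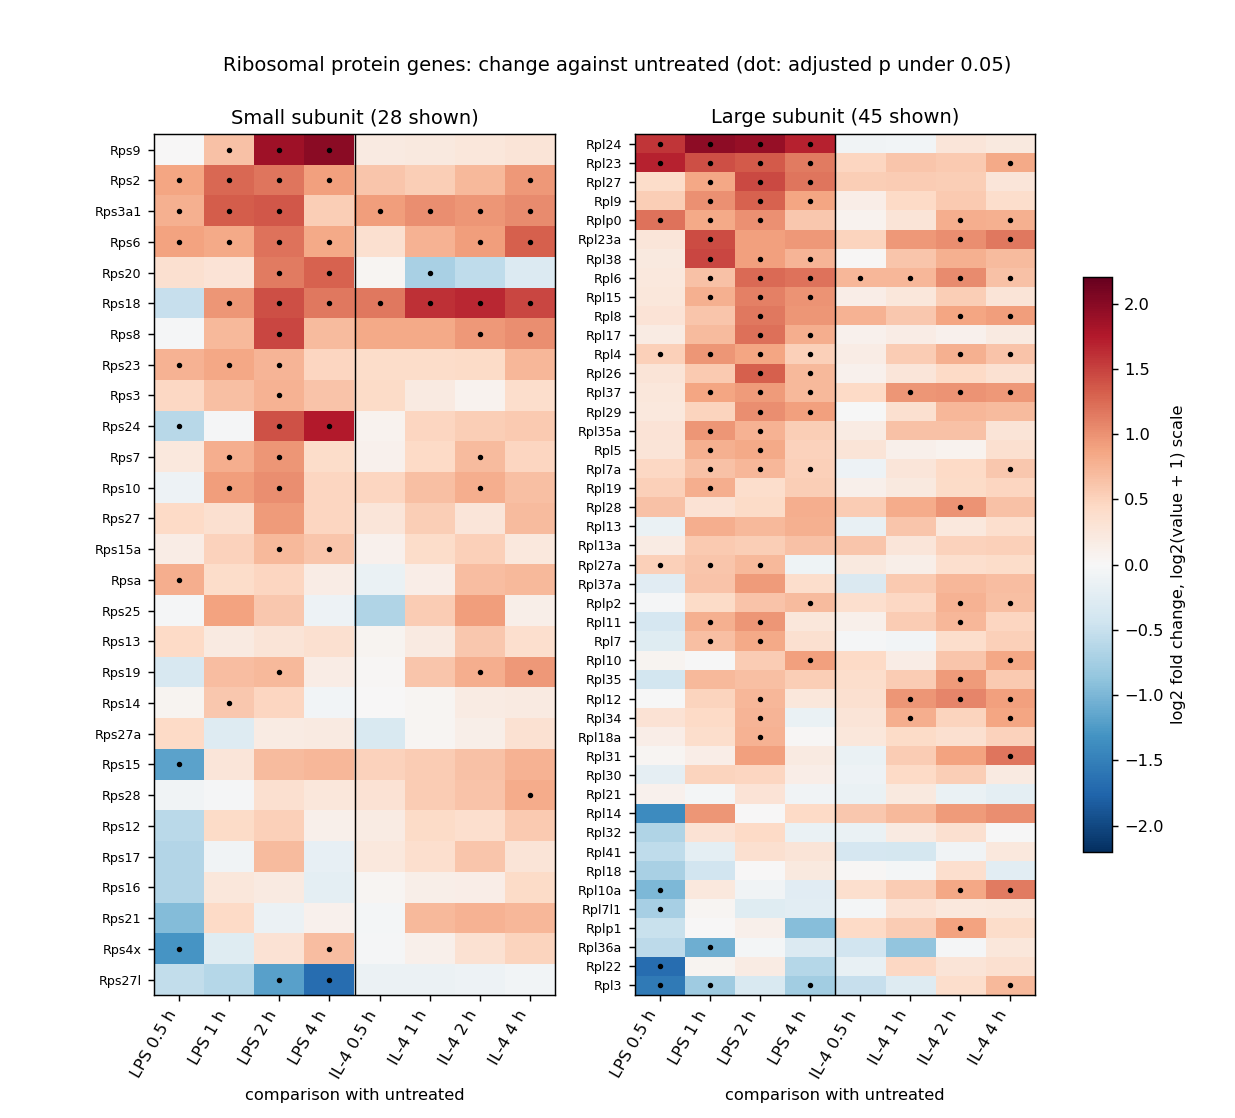
Log2 fold change against untreated of 73 of the 75 members at the 4 time points of LPS and of IL-4 on the deposited scale, with marks where the adjusted p was under 0.05 (limma). Most cells of the 2 h columns are above 0, with 37 marked higher after LPS and 20 after IL-4, and Rpl3 and Rps27l are marked lower at 4 h of LPS.

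Among the small subunit members named here Rps9 and Rps24 had the largest rises after LPS. Rps9 (chr7:3704041-3706897, plus strand) held 64, 77 and 68 normalised read counts in untreated samples and 69, 78 and 63 at 0.5 h of LPS, which overlapped. It then held 103, 111 and 113 at 1 h, 196, 321 and 265 at 2 h and finally, at 4 h, 227, 347 and 270. At 4 h every LPS sample was above 3 times the untreated mean of 69.7 (log2 fold change 1.98 ± 0.19, SE, adjusted p = 1.63e-07, limma). After IL-4 it reached 90, 80 and 86 at 4 h, all above the untreated samples, with 0.29 ± 0.11, which did not pass (adjusted p = 0.0773). Rps24 (chr14:24490678-24496960, plus strand) took a different course, with 37, 30 and 36 untreated, then 22, 21 and 23 at 0.5 h of LPS, 43, 32 and 27 at 1 h, 90, 97 and 88 at 2 h and finally, at 4 h, 133, 129 and 94. It was lower at 0.5 h (−0.61 ± 0.20, adjusted p = 0.0155) and higher at 4 h (1.75 ± 0.20, adjusted p = 1.33e-06). Both directions came from non-overlapping groups, but the call at 0.5 h ended under median-of-ratios factors and without replicate 2 or 3 (−0.67 to −0.56, adjusted p up to 0.0952). At 4 h of IL-4 its values were 65, 48 and 44 (0.58 ± 0.23, adjusted p = 0.087).

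The nearest gene upstream on the same strand was read beside these and other members. Tsen34 ends 3006 bases before Rps9 and had log2 fold changes of −0.63, −0.38, −0.35 and −0.36 over the LPS course, the first of which passed (adjusted p = 0.0424). Gm6958 ends 1227 bases before Rpl24 and had 0.59, −0.18, 0.14 and −0.06, none of which passed (adjusted p = 0.162 at 0.5 h). Pxn, 3480 bases before Rplp0, had 0.45 at 0.5 h and 1.58 at 1 h (adjusted p = 7.74e-06), and Emd, 12923 bases before Rpl10, had 1.27 at 0.5 h (adjusted p = 0.00858). Icmt, 17310 bases before Rpl22, had −1.57 at 0.5 h (adjusted p = 0.00459). The part of these neighbours in the members' values was not tested.

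Rps6, the small subunit protein phosphorylated by S6 kinases, had 21, 11 and 9 untreated. It had 37, 24 and 32 at 2 h of LPS (1.19 ± 0.33, adjusted p = 0.00539) and 44, 26 and 32 at 4 h of IL-4 (1.31 ± 0.27, adjusted p = 0.00294), and neither group overlapped with untreated. Both calls ended without replicate 3 (adjusted p up to 0.115 for LPS and 0.11 for IL-4 with 1 replicate left out), that after IL-4 also without replicate 2, and that after LPS also with equal totals. Rps19, the protein most often mutated in Diamond-Blackfan anaemia, had 22, 20 and 15 untreated, 26, 28 and 43 at 2 h of LPS (0.72 ± 0.30, adjusted p = 0.0434) and 44, 27 and 43 at 4 h of IL-4 (0.95 ± 0.28, adjusted p = 0.0226). Neither call held without replicate 2 or 3 or with no filter on low values, and that after LPS also ended with equal totals, with log2 fold changes of 0.35 to 0.96 for LPS and 0.69 to 1.21 for IL-4 when 1 replicate was left out. Rpsa, also known as the laminin receptor, had 25, 24 and 27 untreated and 50, 43 and 41 at 0.5 h of LPS (0.79 ± 0.32, adjusted p = 0.0458), which no longer passed once the small nucleolar RNAs inside it were taken off (0.70), with equal totals, no filter or no trend, or without replicate 2 or 3 (adjusted p up to 0.236). Rps27a, a fusion of ubiquitin with a ribosomal protein, passed at no time point, with 19, 23 and 18 untreated, and it overlaps Clhc1 on the other strand.

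Rps18 and Rps20, chosen after their values were seen, were both higher at 2 and 4 h of LPS, and at 1 h of IL-4 Rps18 was called higher and Rps20 lower, a difference between genes that was not tested. Rps18, in the small subunit head, had 16, 5 and 10 untreated and 22, 22 and 23 already at 0.5 h of IL-4, with 43, 26 and 29 at 2 h (1.66 ± 0.31, adjusted p = 0.00103). At 0.5 h of LPS it had 6, 6 and 7, and at 2 h 34, 26 and 22 (1.43 ± 0.37, adjusted p = 0.00312), the latter lost with equal totals and without replicate 2 (adjusted p up to 0.0614). The direct comparison at 0.5 h gave −1.67 ± 0.31 (LPS minus IL-4, adjusted p = 6.33e-05). Rps20 had 31, 20 and 22 untreated, 70, 54 and 57 at 4 h of LPS (1.29 ± 0.24, adjusted p = 0.000228) and 17, 12 and 14 at 1 h of IL-4 (−0.71 ± 0.22, adjusted p = 0.0303). All IL-4 samples at 1 h were below all untreated ones, but the call ended when any 1 replicate was left out (−0.76 to −0.65, adjusted p up to 0.203). Rps20 overlaps Gm32823 on the other strand, and whether counting used strand is not stated.

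Rps27l, a close relative of Rps27 that p53 is known to induce, fell late after LPS. It had 9, 16 and 19 untreated, 5, 5 and 7 at 2 h of LPS (−1.19 ± 0.39, adjusted p = 0.0152) and 2, 4 and 6 at 4 h (−1.67 ± 0.39, adjusted p = 0.00166). The call at 2 h ended without replicate 2 or 3 (adjusted p up to 0.168). Its IL-4 samples at 4 h, 7, 17 and 20, overlapped with untreated, and LPS and IL-4 differed there by −1.62 ± 0.39 (adjusted p = 0.000785). Rps27 itself passed at no time point, with 6, 5 and 4 untreated and 6, 13 and 14 at 2 h of LPS (0.94 ± 0.41, adjusted p = 0.0563). In the other pair with both genes measured, Rpl7l1 had 47, 51 and 49 untreated and 35, 27 and 26 at 0.5 h of LPS (−0.73 ± 0.21, adjusted p = 0.00917), a call that ended under median-of-ratios factors and without replicate 2 or 3 (adjusted p up to 0.123). Rpl7 had 18, 14 and 14 untreated and 33, 25 and 26 at 2 h of LPS (0.83 ± 0.24, adjusted p = 0.00774), which ended with equal totals and without replicate 2 or 3 (adjusted p up to 0.0705). The difference between the genes of a pair was not tested.

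Among large subunit members Rpl24 was higher at each LPS time and passed at no IL-4 time. Rpl24 (chr16:55966275-55971437, plus strand), which helps to bridge the subunits, had 28, 39 and 24 untreated. It had 73, 105 and 95 at 0.5 h of LPS, 111, 118 and 127 at 1 h, 99, 118 and 131 at 2 h and finally, at 4 h, 78, 113 and 108. The lowest LPS sample of any time point, 73, was thus above the highest untreated one, and the log2 fold change was 1.57 ± 0.21 at 0.5 h (adjusted p = 1.39e-05) and 1.96 ± 0.21 at 1 h (adjusted p = 8.48e-07, limma). Over IL-4 its samples lay between 25 and 44, with 44, 35 and 30 at 2 h (0.26 ± 0.21, adjusted p = 0.407). LPS and IL-4 differed at 1 h by 2.03 ± 0.20 (adjusted p = 6.32e-09). Rpl24, Rpl23, Rpl4, Rps2 and Rps6 were the members higher at all 4 LPS times. Rpl23, named after its values were seen, had 13, 10 and 19 untreated and 58, 46 and 37 at 0.5 h of LPS (1.70 ± 0.27, adjusted p = 8.81e-05), the highest of its 4 groups. Neither Rpl24 nor Rpl23 had a long pyrimidine run in the start sequences above. At 0.5 h of LPS 5 of the 34 members with a run of at least 8 were higher. Of the 23 with a start but no such run 5 were higher, where 19.6% of all tested genes were. The 2 shares were not tested against each other.

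Rpl3 (chr15:80077781-80083406, minus strand) moved against most of the set after LPS but was called higher, as were 22 of the 75 members, at 4 h of IL-4. It had 112, 133 and 101 untreated, 39, 42 and 34 at 0.5 h of LPS, 57, 70 and 74 at 1 h, 84, 89 and 98 at 2 h and finally, at 4 h, 59, 71 and 72. Every LPS sample lay below every untreated one, and the log2 fold change was −1.56 ± 0.16 at 0.5 h (adjusted p = 1.47e-06), −0.34 ± 0.16 at 2 h, which did not pass (adjusted p = 0.0796), and −0.76 ± 0.16 at 4 h (adjusted p = 0.000835, limma). After IL-4 it had 89, 82 and 71 at 0.5 h (−0.51 ± 0.20, adjusted p = 0.117), 124, 90 and 73 at 1 h, 197, 125 and 138 at 2 h and finally, at 4 h, 220, 182 and 167. At 4 h all IL-4 samples were above all untreated ones (0.71 ± 0.20, adjusted p = 0.0196), a call that ended without replicate 2 or 3 (0.58 to 0.84, adjusted p up to 0.114). LPS minus IL-4 at 4 h was −1.48 ± 0.19 (adjusted p = 2.05e-07).

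Rpl10a, part of the L1 stalk that handles spent tRNA, likewise separated the stimuli. It had 27, 26 and 31 untreated, 11, 19 and 12 at 0.5 h of LPS (−0.98 ± 0.27, adjusted p = 0.00562) and 22, 22 and 26 at 4 h, which overlapped with untreated. The call at 0.5 h ended without replicate 3 (adjusted p up to 0.124). After IL-4 it had 67, 32 and 62 at 2 h and 65, 59 and 65 at 4 h (1.14 ± 0.22, adjusted p = 0.0015). The direct difference at 4 h was −1.40 ± 0.25 (adjusted p = 2.75e-05). Its upstream neighbour Fance, 1897 bases away, had log2 fold changes of −1.36, −2.62, −2.85 and −1.81 over the LPS course, and its part in the fall at 0.5 h was not tested.

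**Figure D4:**
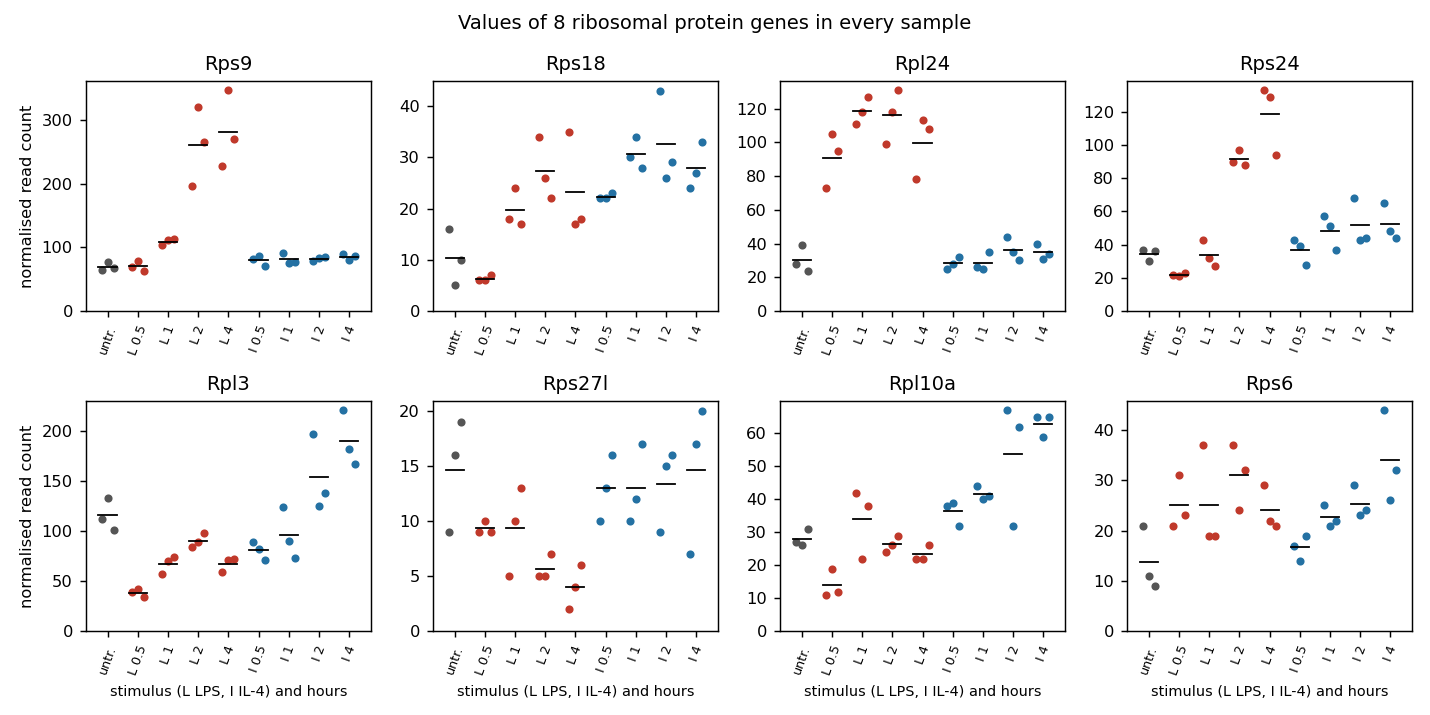
Normalised read counts per sample of Rps9, Rps18, Rpl24, Rps24, Rpl3, Rps27l, Rpl10a and Rps6 by group (untreated, then 0.5 to 4 h of LPS and of IL-4), with a point for each sample and a short bar at the group mean. Rps9 climbs to a mean of 281 at 4 h of LPS, Rpl24 is at a mean of 91.0 by 0.5 h, and Rpl3 drops from a mean of 115 to 38.3 at 0.5 h of LPS and stands at 190 at 4 h of IL-4.

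Rpl4, a protein that lines the exit tunnel, was higher after both stimuli, with 54, 48 and 53 untreated, 104, 116 and 88 at 1 h of LPS (0.97 ± 0.15, adjusted p = 5.65e-05) and 112, 78 and 81 at 2 h of IL-4 (0.78 ± 0.19, adjusted p = 0.00782). The groups did not overlap with untreated, and the IL-4 call ended without replicate 2 (adjusted p up to 0.102). Rpl11, which with Rpl5 and the 5S RNA binds MDM2 when ribosome assembly fails, had 32, 25 and 23 untreated, 62, 50 and 48 at 2 h of LPS (0.98 ± 0.30, adjusted p = 0.0103) and 59, 43 and 34 at 2 h of IL-4 (0.72 ± 0.24, adjusted p = 0.0388). The former call ended with equal totals and without replicate 2 or 3, and the latter under median-of-ratios factors, with no filter on low values and without any 1 replicate (adjusted p up to 0.089 and 0.249). Rpl10, a late-joining protein of the large subunit, had 26, 15 and 27 untreated, 33, 47 and 48 at 4 h of LPS (0.91 ± 0.27, adjusted p = 0.0086) and 43, 41 and 38 at 4 h of IL-4 (0.86 ± 0.22, adjusted p = 0.0105), with both calls lost without replicate 2 or 3 (adjusted p up to 0.137 and 0.105) and the former with equal totals. Rpl22 had 13, 27 and 14 untreated and 11, 4 and 2 at 0.5 h of LPS (−1.68 ± 0.47, adjusted p = 0.00753), which also ended without replicate 2 or 3 (−2.40 to −1.27, adjusted p up to 0.141), and Rpl13a, named in the interferon-γ-activated inhibitor of translation complex, passed at no time point (0.64 ± 0.30 at 4 h of LPS, adjusted p = 0.078).

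The stalk proteins, which recruit the elongation factors, were all higher at 2 h of IL-4, and Rplp0 and Rplp2 were higher after LPS too, at different times. Rplp0, the stalk base, had 21, 12 and 19 untreated and 46, 34 and 41 at 0.5 h of LPS (1.20 ± 0.34, adjusted p = 0.00831), all above untreated, and 32, 33 and 26 at 2 h of IL-4 (0.80 ± 0.23, adjusted p = 0.0205). Rplp1 had 8, 6 and 4 untreated, 2, 2 and 4 at 4 h of LPS (−0.94 ± 0.40, adjusted p = 0.0501) and 13, 11 and 11 at 2 h of IL-4 (0.89 ± 0.25, adjusted p = 0.0162). Of the 5 samples in which Rplp1 reached 10, 3 were those at 2 h of IL-4, so it passed the minimum only through the group called higher, and the call is favoured by the filter. Rplp2 had 24, 24 and 29 untreated, 26, 58 and 49 at 4 h of LPS (0.70 ± 0.29, adjusted p = 0.0475) and 43, 49 and 41 at 2 h of IL-4 (0.77 ± 0.20, adjusted p = 0.0101). Each of these calls ended without replicate 2 and without replicate 3 (adjusted p up to 0.0657 and 0.327 for Rplp0 at the times given, 0.216 for Rplp1, and 0.384 and 0.131 for Rplp2), and both named for Rplp0 and Rplp2 after LPS ended with equal totals. Kif23 ends 2767 bases before Rplp1 and had a log2 fold change of −3.95 at 4 h of LPS, and its part in Rplp1's values was not tested. Fau, which encodes a ribosomal protein fused to a ubiquitin-like protein and is no member by symbol, had 15, 2 and 9 untreated and 22, 23 and 19 at 4 h of LPS.

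A minority of the single calls held throughout. Over 11 alternatives, which are all those run except a minimum mean of 50, the calls of members named here that were kept in every one were, for LPS, Rpl23 and Rpl24 higher and Rpl3 and Rps4x lower at 0.5 h, and Rpl23, Rpl24, Rpl38, Rpl4 and Rps3a1 higher and Rpl3 lower at 1 h. At 2 h they were Rpl23, Rpl24, Rpl26, Rpl27, Rpl6, Rpl9, Rps24, Rps3a1 and Rps9, higher. At 4 h they were Rpl24, Rpl6, Rps20, Rps24 and Rps9, higher, and Rpl3 and Rps27l, lower. For IL-4 they were Rpl6 and Rps18 at 2 h and Rpl10a at 4 h, all higher. With no filter on low values, the calls given above for Rpl3 at 4 h of IL-4, Rplp2 at 4 h of LPS and Rps3 and Rpl5 at 2 h of LPS ended as well.

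Read directly against each other, LPS and IL-4 differed in a minority of members at each single time on the deposited scale. The members called were not the same at each time, and with equal totals most were called at 4 h. At 0.5 h 6 members were higher and 15 lower with LPS (background 18.0% and 35.8%). At 1 h 9 were higher and 1 lower (24.0% and 40.5%), at 2 h 12 were higher and 5 lower (26.4% and 42.3%), and at 4 h 8 were higher and 9 lower (26.1% and 41.9%). The members' median differences were −0.13, 0.11, 0.15 and −0.14 on the log2 scale, against −0.23, −0.33, −0.34 and −0.36 over all tested genes. The direction of the split followed the scaling, with 10 to 7, 21 to 0, 22 to 2 and 12 to 5 under median-of-ratios factors and 3 to 29, 2 to 19, 3 to 20 and 5 to 38 with equal totals. Over all 13901 tested genes it was 3512 to 3862, 4338 to 4573, 4491 to 4868 and 4453 to 4671 under median-of-ratios factors. With equal totals it was 1648 to 6988, 2193 to 7663, 2423 to 8335 and 2458 to 8402 over all tested genes. Without replicate 2 the members' splits were 3 to 9, 2 to 0, 7 to 3 and 5 to 7. Without replicate 3 they were 4 to 7, 3 to 1, 6 to 2 and 5 to 5. With replicates 2 and 3 averaged they were 4 to 9, 3 to 1, 7 to 3 and 5 to 5. Over all tested genes the split at 4 h was 3625 to 5827 with all replicates. It was 3136 to 4877 without replicate 2, 3155 to 4628 without replicate 3 and 3264 to 4983 with averaging. Under the 11 alternatives Rpl24 was higher with LPS at each of the 4 times, Rps20 at 1, 2 and 4 h and Rps9 at 2 and 4 h, while Rpl3 was lower at 0.5, 2 and 4 h and Rpl10a at 0.5 and 4 h.

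Small nucleolar RNAs (snoRNAs), which guide the chemical modification of ribosomal RNA, are cut out of introns of these genes. Their reads appear to be counted in the members' values, although how reads were counted is not stated. Within the 75 members 29 hold 57 snoRNA genes on the same strand. The host's value was at least the summed value of the snoRNAs inside it in 783 of 783 host and sample combinations. These snoRNAs came to more than 50% of the host's value in 4 hosts, Rps3 (88.1%), Rpl5 (70.5%), Rpl13a (59.3%) and Rps2 (53.9%), to 10 to 50% in 16 and to less in 9. Per sample they were 8.90 to 27.4% of the summed level of the members.

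For Rps3 and Rpl5 the call at 2 h of LPS ended without them. Rps3 had 73, 109 and 110 untreated and 119, 187 and 198 at 2 h of LPS (0.77 ± 0.29, adjusted p = 0.0275). With its snoRNAs subtracted it had 14.0 ± 3.0 untreated and 13.7 ± 5.9 at 2 h (SD, n = 3), a log2 fold change of −0.11 (adjusted p = 0.833). Rpl5 had 73, 80 and 81 untreated and 110, 147 and 169 at 2 h of LPS (0.84 ± 0.30, adjusted p = 0.0223), against 30.3 ± 5.0 and 36.0 ± 3.6 after subtraction (0.25, adjusted p = 0.477). Before subtraction both calls also ended with equal totals and without replicate 2 or 3 (adjusted p up to 0.143 for Rps3 and 0.107 for Rpl5). Rpl5 also overlaps Dipk1a on the other strand. The counts of the set changed little, to 27 higher and 2 lower at 1 h of LPS, 34 and 1 at 2 h and 21 and 0 at 2 h of IL-4, although 1 in place of 3 was higher at 0.5 h of IL-4. Subtraction was chosen after seeing the data.

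Other groups of genes linked to ribosomes were read beside the members, from lists written from general knowledge. Ribosome assembly factors, which process ribosomal RNA and build the subunits (45 tested of 49), were higher in 15 and lower in 0 at 1 h of IL-4 (background 11.1% and 9.83%), 33 and 0 at 2 h (14.3% and 13.2%, median log2 fold change 0.87, against 0.00 over all tested genes) and 19 and 0 at 4 h (13.4% and 12.5%). After LPS the same list was split, with 6 higher and 18 lower at 0.5 h (19.6% and 34.4%, median −0.41) and 11 and 6 at 2 h (26.9% and 39.0%, median 0.27), and its medians were negative at every LPS time with equal totals. Mitochondrial ribosomal protein genes, which serve the separate ribosome of mitochondria (63 tested of 78), were 3 higher and 39 lower at 0.5 h of LPS (background 19.6% and 34.4%, median −1.26, against 0.10 in the cytoplasmic set). That direction held under median-of-ratios factors (−1.09) and equal totals (−1.74). After IL-4 7 were higher and 0 lower at 4 h (13.4% and 12.5%, median 0.29). The difference between lists was not tested.

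Other genes whose messages carry a TOP motif (18 tested of 19), such as elongation factors and Pabpc1, were 10 higher and 0 lower at 1 h of LPS (background 24.8% and 39.0%, median 0.68) and 6 and 0 at 2 h of IL-4 (14.3% and 13.2%, median 0.58), although with equal totals the LPS median was 0.10 at 1 h and −0.33 at 0.5 h. Pabpc1, the poly(A)-binding protein, had a mean of 69.3 untreated and 296 ± 22.8 (SD, n = 3) at 0.5 h of LPS. At that time the list went both ways, with 5 higher and 4 lower (background 19.6% and 34.4%, median 0.17). Of 8 non-coding hosts of snoRNAs, 6 were higher and 0 lower at 2 h of LPS (background 26.9% and 39.0%, median 0.90), but 1 and 0 with equal totals (0.31), and 3 and 0 at 4 h of IL-4 (13.4% and 12.5%, median 0.63), with Zfas1 at 15.7 untreated and 138 ± 15.6 at 2 h of LPS. Among 15 regulators tested of 16, Larp1, which binds TOP messages, went from 260 to 2890 ± 391 at 2 h of LPS (log2 fold change 3.48 ± 0.30, adjusted p = 5.3e-08), and Myc from 9.67 to 141 ± 21.8 at 0.5 h of IL-4 (3.79). The regulators as a list had 5 higher and 7 lower at 2 h of LPS, shares near the background of 26.9% and 39.0%, and 3 and 9 with equal totals. With equal totals 2369 of all 13901 tested genes were higher and 7976 lower at 2 h of LPS. The non-coding hosts' 1 and 0 stand beside the same background. At 2 h of IL-4 the regulators had 5 and 1 (background 14.3% and 13.2%).

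Members were also read by features that the selection did not use. The 34 with a pyrimidine run of at least 8 touching the stretch from 5 before to 30 after the start had median log2 fold changes of 0.20, 0.65, 0.76 and 0.54 over the LPS course, and the 23 with a start but no such run had 0.05, 0.48, 0.72 and 0.36. Over the IL-4 course the medians were 0.19, 0.50, 0.61 and 0.59 against 0.05, 0.45, 0.59 and 0.49. Over the LPS course 23 and 11 of them changed, where 87.6% of all tested genes did. Over the IL-4 course 8 and 8 changed, where 40.3% did. Of the 59 members that overlap no other gene except snoRNAs 39 changed after LPS and 14 after IL-4, beside the same background. Their median was 0.76 at 2 h of LPS and 0.58 at 2 h of IL-4. These shares and medians were not tested against each other.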

How the data were processed

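The deposited values are a score: per the labels and the study's methods, the authors aligned reads to mm10 with TopHat2 2.1.1, removed reads with several hits or in blacklisted regions (samtools and bedtools 2.29.2), counted reads per gene in R on the GRCm38.p6 annotation, scaled libraries on invariant genes and rounded to whole numbers. Whether counting used strand, exons or whole genes is not given in the sources used here, nor is the depth per sample, so no count model, interval or floor in reads was used. The subtraction of snoRNAs assumes that reads inside a host on its strand were counted for it.

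Values were tested as log2(value + 1), which understates changes of low genes, with moderated tests in limma 3.58.1 (R 4.3.3, trend of variance on mean) over 13901 genes with at least 10 in at least 3 samples, with Benjamini-Hochberg adjustment over all of them and a threshold of 0.05. Each course was fitted with its 3 untreated samples, and LPS was compared with IL-4 in a fit of all 27. Fits were also run on simulated independent counts with changes at 2 h of LPS only. That setting is simpler than these data and is no check of the calls given here. The impulse model that the study used was not run. Where all libraries of a group were at or under 3, no fold is given (as for Rpl14 and Rps15 at 0.5 h of LPS). Some genes that the sums and counts include are not reported here by name.

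Named genes were 13 fixed members, the paralogue pairs, the largest rises and falls per stimulus among members that passed the F test, had a mean of at least 50 in the higher group and did not overlap with untreated at their peak, and the 3 highest per kilobase. Members, lists and tests were chosen with earlier results of these data known. Alternatives were other filters, a pseudocount of 8, median-of-ratios factors, equal totals, a replicate block, leaving out replicates, averaging replicates 2 and 3, no trend and, added after seeing the data, subtraction of snoRNAs and 2 settings for the sums. Promoters came from RefSeq, and proteins were not analysed here.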

Additional observations from a re-analysis of the deposited data

Results flagged for a closer look

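For 16 of the named members the response to LPS differed from that to IL-4 at the same time in a direct test in 1 fit of all 27 samples (limma, adjusted p under 0.05). Over all tested genes 18.0% were higher and 35.8% lower with LPS at 0.5 h, and 24.0% and 40.5% at 1 h. At 2 h these shares were 26.4% and 42.3%, and at 4 h 26.1% and 41.9%. A member counts here if it was called at any of the 4 times. Rps9, Rpl24, Rps24, Rpl3, Rpl10a and Rpl4 were named for large changes in these same data. Each difference is on the log2 scale, LPS minus IL-4, at the time point where it was largest.

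At 0.5 h the difference was 0.93 for Rpsa, 1.13 for Rplp0, 0.76 for Rps27a, −1.51 for Rpl22 and −0.68 for Rpl7l1. At 1 h it was 2.03 for Rpl24, 0.72 for Rpl7 and 0.41 for Rpl4. At 2 h it was 0.76 for Rpl5, where the snoRNAs inside amount to most of its value. At 4 h it was 1.69 for Rps9 and 1.17 for Rps24, and −1.33 for Rplp1, −0.79 for Rps19, −1.62 for Rps27l, −1.48 for Rpl3 and −1.40 for Rpl10a. Rplp1 at 4 h of LPS had 2, 2 and 4 normalised read counts, so its difference rests on very low values.

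Over 11 alternatives 8 of the 16 differences passed in every one, those of Rplp0, Rplp1, Rps27l, Rps9, Rpl24, Rps24, Rpl3 and Rpl10a. The other 8 were lost in 2 to 7 of them. Rpl4 and Rpl5 were lost in 7 and Rps27a in 5, all 3 with equal totals, with no filter on low values and without replicate 2 or 3. Rpsa was lost with equal totals and without replicate 2 or 3, Rps19 and Rpl7l1 under median-of-ratios factors and without replicate 2 or 3, Rpl7 with equal totals and without replicate 1 or 2, and Rpl22 without replicate 3.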

How the results depend on the processing

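Counts below are members called in either direction, given in order of time where several stand together. Over the F tests, LPS and IL-4 counts were 45 and 18. With a minimum mean of 50, which left 8 members, they were 6 and 2, with 4, 5, 7 and 6 called after LPS, 0, 1, 1 and 2 after IL-4 and 3, 5, 5 and 4 between the stimuli. With replicates 2 and 3 averaged they were 24 and 2, with 6, 14, 22 and 14 for LPS, 0, 1, 4 and 2 for IL-4 and 13, 4, 10 and 10 between the stimuli. With no filter on low values 9 changed over the IL-4 course, 1 was called at 0.5 h and 11 at 4 h of IL-4. With equal totals LPS counts were 14 at 1 h, 14 at 2 h and 16 at 4 h, and between the stimuli 32 at 0.5 h, 21 at 1 h and 43 at 4 h. Median-of-ratios factors gave 21 between the stimuli at 1 h, and subtracting snoRNAs gave 1 at 0.5 h of IL-4. The cause was not tested beyond what these settings change by construction. Under equal totals and with replicates 2 and 3 averaged the numbers over all tested genes moved too, as given above.

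With 1 replicate left out of every group, 14 to 49 members changed over the LPS course and 0 to 11 over the IL-4 course. Calls ranged from 5 to 19, 11 to 30, 19 to 41 and 11 to 25 for LPS, from 0 to 6, 0 to 7, 4 to 12 and 1 to 17 for IL-4, and from 11 to 22, 2 to 11, 8 to 19 and 10 to 17 between the stimuli. Over all tested genes 10057 to 12504 changed over the LPS course and 2169 to 6546 over the IL-4 course.

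Ratios of the summed level to untreated turned to 0.772 and 0.992 at 0.5 and 1 h of LPS with equal totals and were 1.15 and 1.04 later, and 1.03 and 1.18 at 0.5 and 1 h of IL-4. With median-of-ratios factors they were 1.31, 1.79, 2.14 and 1.88 for LPS, and with snoRNAs subtracted 1.44 at 1 h of LPS and 1.07 at 0.5 h of IL-4. The members' median log2 fold change turned to −0.39 at 0.5 h and −0.074 at 4 h of LPS with equal totals. Single values that turned were Rps3 at 2 h of LPS (−0.11) and Rpl5 at 4 h of IL-4 (−0.038) with snoRNAs subtracted, and Rps27a at 0.5 h of LPS (−0.057, equal totals) and at 4 h of IL-4 (−0.096, without replicate 1, with 1 replicate left out −0.096 to 0.67). Of 520 values of named members, 415 kept direction and side of the threshold, 84 lost a call, 17 gained 1 and 4 turned.

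The replicate number as a block gave 56 members over the LPS course, 28 over the IL-4 course, 14 at 1 h and 32 at 2 h of IL-4 and 16 between the stimuli at 1 h, and it moved no other count by over 1.5 times. The numbers share no stated animal or day. Deviations of samples with the same number correlated with medians of 0.499, 0.224 and 0.291 for replicates 1, 2 and 3, and 19 of 27 samples correlated best with their own number, a hint of shared numbers. Because the lowest correlation, 0.0897, was under the 0.1 required of every pair, the samples were not treated as paired. Whether the low values of most members, a median of 14.3 untreated, set how many were called was not tested.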
